A study of Mus musculus with 6 samples.

Results

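Genes of the glutathione, thioredoxin and antioxidant systems were compared between GHRH-KO and control liver. The group holds 53 genes, chosen by name: 21 transferases, 4 genes of glutathione synthesis and recycling, 8 peroxide and superoxide enzymes, 11 genes of the thioredoxin system, 2 genes of NADPH supply, NRF2 with its repressor and induced genes (5 genes), and 2 metallothioneins. Of these, 49 were among the 18193 genes with a probe set of their own, and 47 passed the intensity filter, of 12469 genes tested. Prdx1, Prdx5, Prdx6 and G6pdx are not analysed here. Gsto2 (mean 3.74 in control and 3.66 in GHRH-KO liver, RMA value, log2) and Mgst2 (3.61 and 3.77) lay below the filter, whose lowest probe set had a mean of 4.64.

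The 3 GHRH-KO mice (replicates 4, 5 and 6) carry a germline disruption of Ghrh, which encodes the hypothalamic hormone that drives release of growth hormone, and the 3 controls (replicates 1, 2 and 3) were wild-type littermates. All 6 were males on a mixed C57BL6 and 129SV background, 10 months old according to the methods, and their livers were taken after a fast of 6 to 8 h with no other treatment. Each mouse gave 1 array of whole liver RNA, so that fewer cells of a type and less RNA per cell cannot be told apart. Values are RMA values, a background-corrected and quantile-normalized summary of the probes that read a transcript, on the log2 scale, and 1 unit is a doubling of signal. A gene was read by its probe set with the highest mean, and it was called changed at an adjusted p under 0.05 from limma together with a fold change above 1.5 or below 0.67. The Ghrh probe set lay between 4.40 and 4.75 on all 6 arrays (log2 fold change -0.04, standard error, SE, 0.12), so the targeted gene, which is not a liver transcript, does not check the genotype labels. The precision of each value is limited by the number of arrays.

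Glutathione is a small peptide that keeps cellular thiols reduced. Glutathione S-transferases attach it to reactive compounds, and glutathione peroxidases spend it on removing peroxides. Thioredoxin and the peroxiredoxins form a parallel system that draws on NADPH through thioredoxin reductase. In liver, several genes of both systems are induced by the transcription factor NRF2 (Nfe2l2), which is held in check by KEAP1 and binds antioxidant response elements, whereas metallothioneins bind metals and are induced through metal response elements.

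Among the 47 genes tested, 3 rose in GHRH-KO liver: the transferase Gstt3, the plasma glutathione peroxidase Gpx3 and the quinone reductase Nqo1. Over all genes, 0.786% were called increased. One gene, the pi class transferase Gstp1, fell, against 0.97% of all genes called decreased. The other 43 were not called. The median log2 fold change of the 47 genes was 0.08, beside 0.00 for all genes tested, and single genes ranged from -0.77 to 1.51. At an unadjusted p under 0.05 from limma, 8 were higher and 6 lower, where 9.15% of all genes were higher and 10.1% lower. Values did not overlap between the genotypes for 18 of the 47 genes. They were all above the control values for 10 genes and all below for 8, and over all genes these patterns held for 12.7% and 15.7%. Of the 43 genes not called, 20 had a 95% confidence interval that lay inside the limits of the fold change (46.5%, beside 57.1% of all genes not called), so a change past those limits is within the interval for the others.

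**Figure D1:**
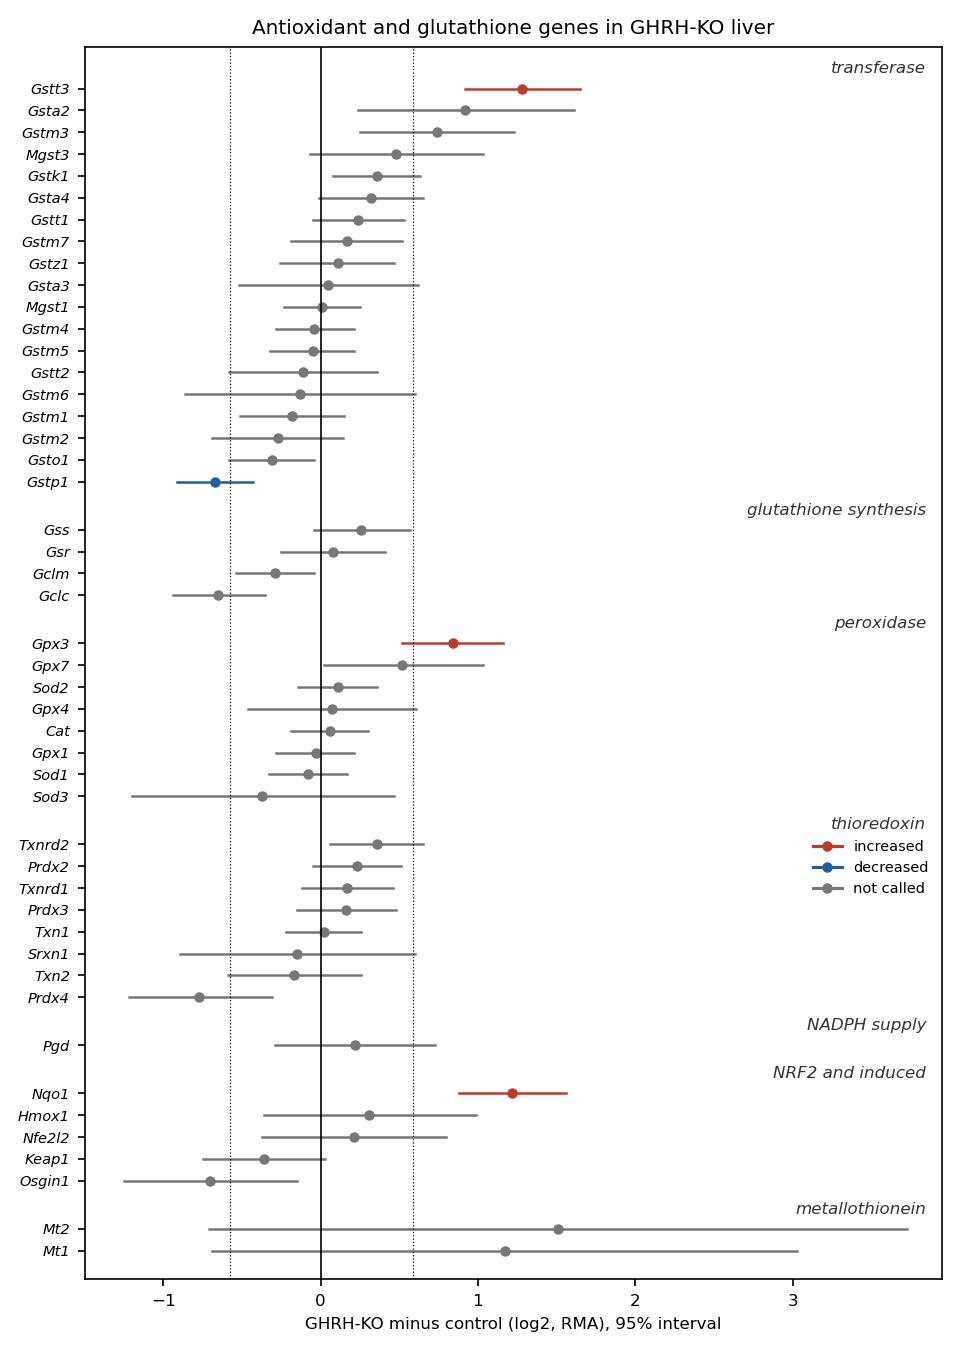
Difference between GHRH-KO and control liver (x axis, log2 RMA) of the 47 genes tested, grouped by role, with points for the estimate and lines for the 95% interval (limma, n = 3 per genotype). Dotted lines mark the fold limits of 1.5 and 0.67. Gstt3, Gpx3 and Nqo1 lie to the right, Gstp1 to the left, and the 2 metallothioneins have the widest intervals.

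The promoters of the 4 genes that were called are shown first, since they can be set against the antioxidant response element. The windows are RefSeq sequences of GRCm38.p6 from 250 bases before to 50 bases after the start of transcription, 5′ to 3′ on the strand of the gene. Both strands were searched for TGACNNNGC, the core of the antioxidant response element, and for TATAAA, and matches are in capitals.
Nqo1, chr8:107403156-107403455, minus strand: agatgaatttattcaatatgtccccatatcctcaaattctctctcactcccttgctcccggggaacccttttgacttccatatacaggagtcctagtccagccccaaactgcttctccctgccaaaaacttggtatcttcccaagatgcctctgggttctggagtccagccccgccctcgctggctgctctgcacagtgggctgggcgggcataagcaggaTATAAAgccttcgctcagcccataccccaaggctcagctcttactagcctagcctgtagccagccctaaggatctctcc
Gstt3, chr10:75781365-75781664, minus strand: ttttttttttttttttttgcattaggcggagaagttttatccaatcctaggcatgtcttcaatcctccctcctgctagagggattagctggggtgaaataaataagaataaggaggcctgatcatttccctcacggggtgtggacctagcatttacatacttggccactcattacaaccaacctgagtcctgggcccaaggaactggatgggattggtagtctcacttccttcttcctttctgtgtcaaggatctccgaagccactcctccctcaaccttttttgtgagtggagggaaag
Gpx3, chr11:54902604-54902903, plus strand: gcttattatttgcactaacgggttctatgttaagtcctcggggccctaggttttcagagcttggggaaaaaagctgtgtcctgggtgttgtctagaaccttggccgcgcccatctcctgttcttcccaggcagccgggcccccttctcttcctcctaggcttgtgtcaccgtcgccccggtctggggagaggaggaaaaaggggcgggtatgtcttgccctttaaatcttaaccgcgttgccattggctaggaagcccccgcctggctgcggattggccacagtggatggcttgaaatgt
Gstp1, chr19:4037863-4038162, minus strand: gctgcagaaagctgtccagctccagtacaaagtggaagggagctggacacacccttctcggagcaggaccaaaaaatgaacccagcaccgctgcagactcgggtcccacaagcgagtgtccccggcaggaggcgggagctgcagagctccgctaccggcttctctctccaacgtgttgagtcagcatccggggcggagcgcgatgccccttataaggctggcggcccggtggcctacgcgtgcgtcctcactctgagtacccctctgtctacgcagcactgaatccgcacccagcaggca
None of these windows held TGACNNNGC, and the window of Nqo1 held TATAAA 29 bases before the start. RefSeq windows were matched for 46 of the 53 genes (61 windows, as some genes have several starts). The TGACNNNGC core was present in 13 of the 61 windows (21.3%) and in 12.4% of all 32851 windows, while TATAAA was present in 10 (16.4%) and in 13.6% of all. A match is a description of these letters alone, and nothing follows from its absence in a window of this length.

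The 13 genes with the core were G6pdx, Gclm, Gsta3, Gstm5, Gstm7, Mgst1, Mt2, Nfe2l2, Pgd, Prdx1, Sod1, Srxn1 and Txnrd1. The stretches around it are given for 4 genes that are often used to follow NRF2 or that encode it, on the strand of the match, with the core in capitals.
Gclm, chr3:122245408-122245446, minus strand: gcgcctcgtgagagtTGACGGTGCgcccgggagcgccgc
Txnrd1, chr10:82859099-82859137, minus strand: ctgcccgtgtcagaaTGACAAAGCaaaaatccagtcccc
Srxn1, chr2:152105537-152105573, minus strand: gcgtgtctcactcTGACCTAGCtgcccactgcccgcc
Nfe2l2, chr2:75704880-75704913, minus strand: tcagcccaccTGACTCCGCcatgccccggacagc
Of the 13 genes, 11 were tested and none was called, with a median log2 fold change of 0.05. Of the 33 genes whose windows lacked the core, 30 were tested, 3 rose and 1 fell, with a median of 0.11. Among all genes tested, 0.786% were called increased and 0.97% decreased. The 2 groups of genes were not compared by a test, and a core outside these windows would be missed.

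Transferases were the largest class, with 19 genes tested, 1 increased, 1 decreased and a median log2 fold change of 0.05. Gstt3, a theta class transferase (probe set 1423891_at), read 10.01, 9.53 and 9.92 in the control mice (replicates 1, 2 and 3, the order used throughout) and 11.20, 11.13 and 10.99 in the GHRH-KO mice (replicates 4, 5 and 6). The lowest GHRH-KO value lay above the highest control value, and control replicate 2 was the lowest of all. The mean rose from 9.82 ± 0.25 (SD, n = 3) to 11.11 ± 0.11 (SD, n = 3), a log2 fold change of 1.28 (SE 0.15, 2.44-fold, adjusted p = 0.0134 from limma). The adjusted p was 0.0553 without control replicate 3, with a log2 fold change of 1.33. Gstt1 (0.24, SE 0.12), the next gene on chromosome 10, and Gstt2 (-0.11, SE 0.20), which lies close by, were not called.

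Gstp1, the pi class transferase (probe set 1449575_a_at), went the other way. It read 14.15, 14.19 and 14.14 in control liver and 13.45, 13.50 and 13.53 in GHRH-KO liver, so the genotypes were apart and each was narrow. The mean fell from 14.16 ± 0.03 (SD, n = 3) to 13.49 ± 0.04 (SD, n = 3), with a log2 fold change of -0.67 (SE 0.10, 0.629-fold, adjusted p = 0.0286 from limma). The call was lost when any 1 of the 6 arrays was left out (adjusted p between 0.0603 and 0.110 from limma), with log2 fold changes from -0.69 to -0.65. It was also lost with arrays centred on their median (-0.63, adjusted p = 0.0515). Gstp1 and Gstp2 are near-identical copies, so the signal may hold both. Another gene of that cluster on chromosome 19, Gstp3, is outside the 53 genes and was looked up after the value of Gstp1 had been seen. Gstp3 read 8.79, 8.57 and 8.58 in control liver and 9.50, 9.97 and 9.46 in GHRH-KO liver, and rose by 1.0 on the log2 scale (SE 0.17, adjusted p = 0.0409 from limma).

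**Figure D2:**
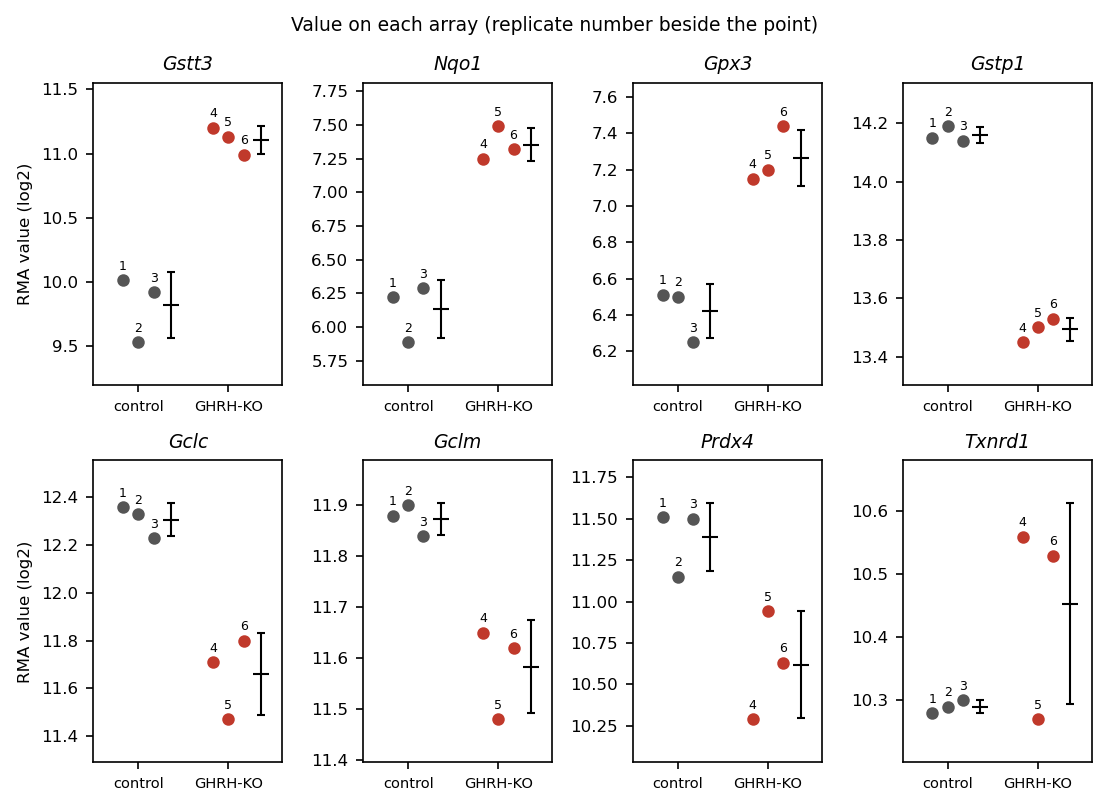
RMA value (y axis, log2) of 8 genes on each array, with control mice in grey and GHRH-KO mice in red, the replicate number beside each point, and the mean with its SD as a black bar (n = 3). The y axes differ and do not start at 0. The genotypes do not overlap for Gstt3, Nqo1, Gpx3, Gstp1, Gclc, Gclm and Prdx4, and they overlap for Txnrd1.

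The other 17 transferases were not called. The alpha class gene Gsta2 read 12.25, 11.33 and 12.51 in control liver and 12.79, 13.09 and 12.99 in GHRH-KO liver. The genotypes were apart, and control replicate 2 lay well under the other control mice. Its log2 fold change of 0.92 (SE 0.29, adjusted p = 0.174 from limma) was 0.57 without that replicate. Gsta4, which acts on lipid peroxidation products such as 4-hydroxynonenal, differed by 0.32 (adjusted p = 0.284) and Gsta3 by 0.05.

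The mu class genes Gstm5, Gstm7, Gstm6, Gstm3, Gstm2, Gstm1 and Gstm4 follow each other on chromosome 3 and share sequence, so some of their probes may read a neighbour. Gstm3 read 11.78, 11.64 and 11.36 in control liver and 11.94, 12.65 and 12.41 in GHRH-KO liver. All GHRH-KO values were higher, by 0.74 in the mean (SE 0.21, adjusted p = 0.139 from limma), and a second probe set differed by 0.82. At their brightest probe sets the other 6 mu class genes differed by -0.27 to 0.17, and the genotypes overlapped for each. Gstm1 had probe sets of opposite direction, since the dimmest was higher by 0.34 and another lower at -0.18, each with the genotypes apart and neither called. Gstk1, a mitochondrial and peroxisomal transferase, differed by 0.36 with the genotypes apart (adjusted p = 0.181). The omega class gene Gsto1 differed by -0.31 at its brightest probe set and by 0.30 at the other, with the genotypes apart at both, and neither was called. Gstz1, the maleylacetoacetate isomerase of tyrosine breakdown, differed by 0.11. The membrane-bound Mgst1 read 13.92 to 13.97 in control liver and 13.95 to 13.98 in GHRH-KO liver, a difference of 0.01 with a 95% interval of -0.23 to 0.25. Mgst3 differed by 0.48 with overlapping values, and its lowest value, 8.63, was again that of control replicate 2.

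In glutathione synthesis no gene was called, and the median of the 4 genes was -0.11. Gclc, the catalytic subunit of glutamate-cysteine ligase, the rate-limiting enzyme, read 12.36, 12.33 and 12.23 in control liver and 11.71, 11.47 and 11.80 in GHRH-KO liver. The genotypes were apart, with a log2 fold change of -0.65 (SE 0.13, adjusted p = 0.0634 from limma). With an intensity trend in the variance model the adjusted p was 0.0315. A second probe set of Gclc differed by -0.38, with all GHRH-KO values lower. Gclm, the modifier subunit, read 11.88, 11.90 and 11.84 in control liver and 11.65, 11.48 and 11.62 in GHRH-KO liver. These values did not overlap either, and the difference was -0.29 (SE 0.11, adjusted p = 0.225), whereas the second probe set of Gclm overlapped at -0.10.

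Gss, glutathione synthetase, differed by 0.26 at its brightest probe set (SE 0.13, adjusted p = 0.336). A dimmer probe set (1441931_x_at) read 7.58, 7.64 and 7.85 in control liver and 8.46, 9.16 and 8.75 in GHRH-KO liver. That one alone was called, with a log2 fold change of 1.10 (SE 0.19, adjusted p = 0.0465 from limma). Its call held without GHRH-KO replicate 4 and was lost without any other array (adjusted p between 0.0551 and 0.154 from limma). Gsr, glutathione reductase, differed by 0.08 at one probe set and by -0.62 at the other, where GHRH-KO replicate 5 read 7.51 and the other GHRH-KO mice 8.95 and 8.80. Without that replicate the second difference was -0.16.

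Among the peroxidases, catalase and the superoxide dismutases (8 genes, median 0.07), Gpx3 alone was called. Gpx3 encodes the secreted glutathione peroxidase of plasma (probe set 1449106_at). It read 6.51, 6.50 and 6.25 in control liver and 7.15, 7.20 and 7.44 in GHRH-KO liver, with no overlap. The mean rose from 6.42 ± 0.15 (SD, n = 3) to 7.26 ± 0.16 (SD, n = 3), a log2 fold change of 0.84 (SE 0.14, 1.79-fold, adjusted p = 0.0353 from limma). Leaving out any 1 of the 6 arrays ended the call (adjusted p between 0.0645 and 0.129 from limma), with log2 fold changes from 0.75 to 0.90.

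The main cytosolic, mitochondrial and peroxisomal enzymes had narrow intervals at their brightest probe sets. The cytosolic peroxidase Gpx1 differed by -0.03 (95% interval -0.28 to 0.21), catalase (Cat) by 0.06 (-0.19 to 0.30), the cytosolic dismutase Sod1 by -0.08 (-0.33 to 0.17) and the mitochondrial dismutase Sod2 by 0.11 (-0.14 to 0.36). Each of these intervals lay inside the fold limits. The 3 dimmer probe sets of Sod2 differed by -0.03, 0.14 and 0.56. At the set with 0.56 the genotypes were apart, and it was not called (adjusted p = 0.140 from limma). Its 95% interval of 0.19 to 0.92 reaches past the upper fold limit. The dimmer probe sets tested for Sod1 differed by 0.03, by -0.47 (-1.05 to 0.11) and by -0.22 (-0.59 to 0.14). Both of the last intervals reach past the lower fold limit. Without GHRH-KO replicate 5 the difference of -0.47 was -0.19. The lipid peroxidase Gpx4 (0.07), the extracellular dismutase Sod3 (-0.37) and Gpx7 (0.52) had wider intervals. Gpx7 was dim, with a control mean of 4.66 that lay under the highest Ghrh value, and its genotypes overlapped.

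No gene of the thioredoxin system was called by its brightest probe set, and the median of the 8 genes tested was 0.09. Cytosolic thioredoxin, Txn1, read 12.58 to 12.70 in control liver and 12.66 to 12.67 in GHRH-KO liver, a difference of 0.02 (95% interval -0.22 to 0.26). Txnrd1, the cytosolic thioredoxin reductase, read 10.28, 10.29 and 10.30 in control liver and 10.56, 10.27 and 10.53 in GHRH-KO liver. GHRH-KO replicates 4 and 6 lay above the control mice and replicate 5 just below them, and the difference of 0.17 was not called (SE 0.12, adjusted p = 0.489 from limma). The mitochondrial reductase Txnrd2 differed by 0.36 with the genotypes apart (adjusted p = 0.209), while its 3 other probe sets differed by -0.58 to -0.10. The set at -0.58 differed by 0.15 without GHRH-KO replicate 5.

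Txn2, mitochondrial thioredoxin, had probe sets that disagreed. The brightest read 10.12, 10.13 and 10.28 in control liver and 10.16, 9.62 and 10.24 in GHRH-KO liver, a difference of -0.17 (SE 0.18, adjusted p = 0.647), and a second differed by 0.11. The third and dimmest (1455640_a_at) read 8.39, 8.58 and 8.69 in control liver and 9.84, 10.39 and 10 in GHRH-KO liver. It was called, at a log2 fold change of 1.52 (SE 0.17, adjusted p = 0.00982 from limma), and lost the call without control replicate 2 (adjusted p = 0.0547). A dimmer probe set alone was thus called for Txn2 and Gss, 2 of the 25 genes with several probe sets tested, and the same held for 1.16% of all such genes. In 15 of the 25 genes all probe sets differed in the same direction and in 10 they did not. Which transcripts each probe set reads was not tested.

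**Figure D3:**
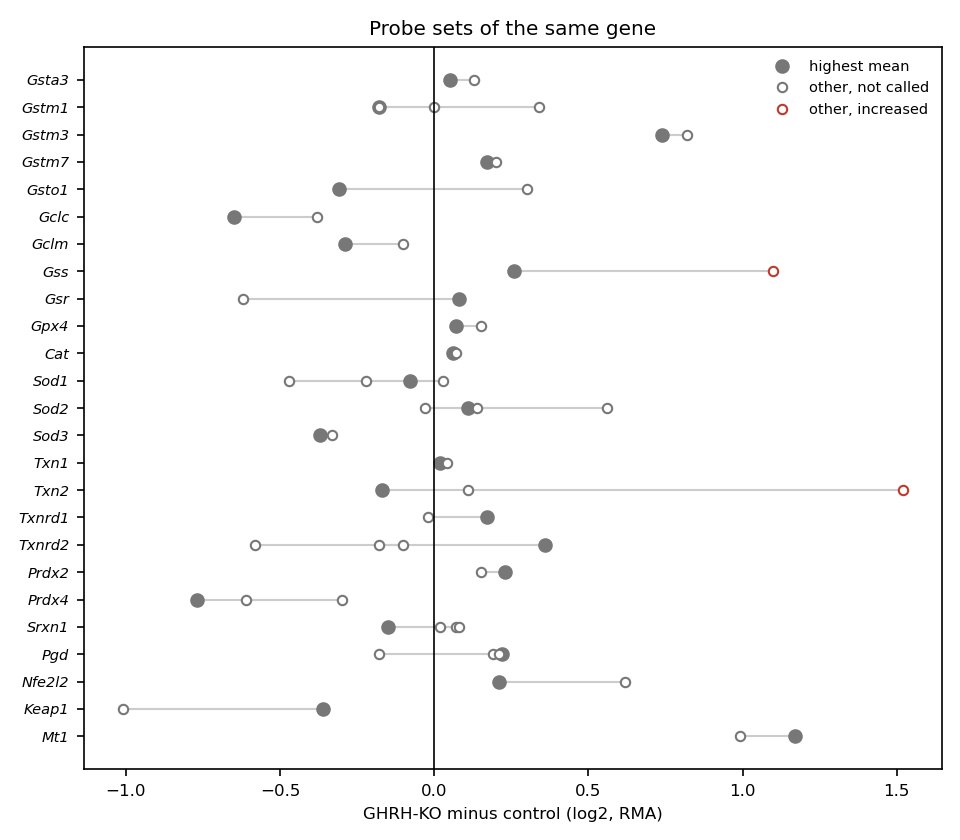
Difference between GHRH-KO and control liver (x axis, log2 RMA) at each probe set of the 25 genes with several probe sets tested. Filled points are the probe set with the highest mean, open points the others, and red marks those called increased. The dimmer sets of Txn2 (1.52) and Gss (1.10) lie far from the brightest set of the same gene.

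Of the peroxiredoxins, which remove peroxides with electrons from thioredoxin, Prdx4 had the lowest log2 fold change of the 47 genes. Prdx4, the peroxiredoxin of the endoplasmic reticulum, read 11.51, 11.15 and 11.50 in control liver and 10.29, 10.94 and 10.63 in GHRH-KO liver. All GHRH-KO values were lower, and the log2 fold change of -0.77 (SE 0.19) did not pass the test (adjusted p = 0.114 from limma). With array weights it was -0.85 with an adjusted p of 0.0265 from limma. In that fit GHRH-KO replicate 6 had a weight of 3.35, and the other arrays had 0.399 to 1.37. The 2 other probe sets tested differed by -0.61 and -0.30. Prdx2 (0.23) and the mitochondrial Prdx3 (0.16) differed little, as did sulfiredoxin, Srxn1, which restores overoxidized peroxiredoxins (-0.15). For Srxn1 the lowest value, 7.28, was that of GHRH-KO replicate 5. Pgd, an NADPH-producing dehydrogenase of the pentose phosphate pathway, differed by 0.22 with overlapping values (SE 0.22).

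Nqo1, an NAD(P)H quinone reductase and a classical NRF2 target (probe set 1423627_at), was the one gene called in the NRF2 class of 5. It read 6.22, 5.89 and 6.29 in control liver and 7.25, 7.49 and 7.32 in GHRH-KO liver. The genotypes were well apart, and the mean rose from 6.13 ± 0.21 (SD, n = 3) to 7.35 ± 0.12 (SD, n = 3). The log2 fold change was 1.22 (SE 0.14, 2.33-fold, adjusted p = 0.0126 from limma). Without GHRH-KO replicate 6 the adjusted p was 0.0563, with a log2 fold change of 1.23.

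The other genes of this class were not called. Nfe2l2, which encodes NRF2, read 10.68, 9.70 and 10.52 in control liver and 10.42, 10.59 and 10.52 in GHRH-KO liver, a difference of 0.21 (adjusted p = 0.679 from limma) with control replicate 2 the lowest. A dimmer probe set of Nfe2l2 differed by 0.62 (SE 0.26, adjusted p = 0.269 from limma). Its values overlapped, and control replicate 2 was again the lowest. Keap1, the repressor of NRF2, differed by -0.36 at its brightest probe set, with the genotypes apart (adjusted p = 0.303), and by -0.20 without GHRH-KO replicate 5. The other probe set of Keap1 read 6.93, 6.14 and 6.37 in control liver and 6.27, 4.45 and 5.70 in GHRH-KO liver, so the genotypes overlapped, and its difference of -1.01 was -0.50 without that replicate. Osgin1, an oxidative stress-induced growth inhibitor, read 10.64, 10.80 and 10.19 in control liver and 9.92, 9.44 and 10.18 in GHRH-KO liver, a difference of -0.70 (SE 0.23, adjusted p = 0.190). Hmox1, the inducible heme oxygenase, read 6.83, 5.90 and 6.50 in control liver and 7.19, 6.44 and 6.54 in GHRH-KO liver. The Hmox1 values overlapped, and the difference of 0.31 was not called (SE 0.29, adjusted p = 0.592).

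The metallothioneins had the widest spread within a genotype. Mt1 read 10.80, 9.67 and 8.45 in control liver and 12.24, 10.72 and 9.47 in GHRH-KO liver, and Mt2 read 9.38, 7.73 and 7.45 in control liver and 11.68, 9.56 and 7.87 in GHRH-KO liver. In both genes GHRH-KO replicate 4 was the highest array and control replicate 3 the lowest, and the genotypes overlapped. The differences, 1.17 for Mt1 (SE 0.79, adjusted p = 0.464 from limma) and 1.51 for Mt2 (SE 0.94, adjusted p = 0.429), were large but within the spread between mice. Without GHRH-KO replicate 4 they were 0.45 and 0.53. A second, dim probe set of Mt1 read 4.89, 4.99 and 4.91 in control liver and 7.52, 5.45 and 4.78 in GHRH-KO liver, again highest in replicate 4.

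**Figure D4:**
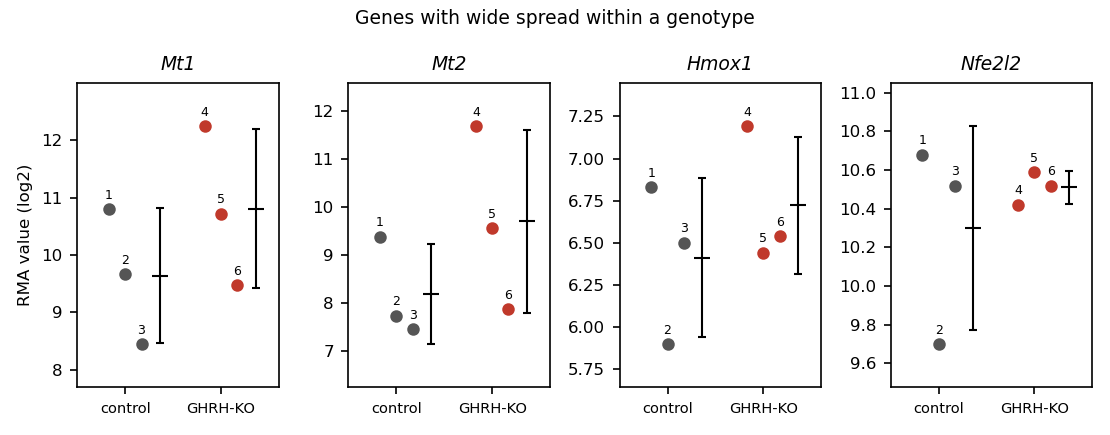
RMA value (y axis, log2) of Mt1, Mt2, Hmox1 and Nfe2l2 on each array, with control mice in grey and GHRH-KO mice in red, the replicate number beside each point, and the mean with its SD as a black bar (n = 3). The y axes differ and do not start at 0. GHRH-KO replicate 4 is highest for Mt1, Mt2 and Hmox1, and the genotypes overlap in all 4 panels.

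Mt2 and Mt1 are adjacent on chromosome 8, and their promoter windows are given because the values of both genes move together over the arrays. Capitals mark the metal response element cores TGCACNC and TGCGCNC on either strand, a motif chosen after the values had been seen.
Mt1, chr8:94178839-94179138, plus strand: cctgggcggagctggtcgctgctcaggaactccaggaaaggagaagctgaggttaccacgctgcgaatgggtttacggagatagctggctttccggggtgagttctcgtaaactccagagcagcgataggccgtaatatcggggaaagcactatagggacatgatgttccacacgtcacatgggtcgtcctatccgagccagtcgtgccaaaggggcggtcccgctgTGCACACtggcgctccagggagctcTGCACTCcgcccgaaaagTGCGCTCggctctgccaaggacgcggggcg
Mt2, chr8:94172368-94172667, plus strand: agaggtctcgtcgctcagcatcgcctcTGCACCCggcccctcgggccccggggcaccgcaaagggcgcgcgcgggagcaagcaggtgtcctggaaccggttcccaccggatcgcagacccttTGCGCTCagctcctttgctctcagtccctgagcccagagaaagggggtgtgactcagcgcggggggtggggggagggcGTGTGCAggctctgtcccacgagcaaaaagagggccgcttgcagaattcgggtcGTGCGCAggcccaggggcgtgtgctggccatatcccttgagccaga
The window of Mt1 held 3 matches and that of Mt2 held 4. TGCACNC was found in 7 of the 61 windows (11.5%) and in 12.6% of all windows, and TGCGCNC in 14 (23.0%) and in 15.4% of all.

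Other genes of these pathways, 120 genes in 6 lists, were read the same way. Of 108 tested, none rose and 1 fell, with a median log2 fold change of 0.02. Over all genes 0.786% were called increased and 0.97% decreased. At an unadjusted p under 0.05 from limma, 12 of the 108 were higher and 17 lower, beside 9.15% and 10.1% of all genes. The gene that fell was Slc30a10, a manganese exporter of the metal handling list (12 tested, median -0.04). It read 9.47, 8.90 and 8.93 in control liver and 7.70, 6.69 and 7.28 in GHRH-KO liver. The genotypes were apart, with a log2 fold change of -1.88 (SE 0.28, adjusted p = 0.0273 from limma). The call was lost without GHRH-KO replicate 6 or any 1 of the control replicates (adjusted p between 0.0718 and 0.0938 from limma). No gene was called among 22 other glutathione enzymes (median 0.04), 28 other thioredoxin genes (-0.02), 25 other NRF2 target genes (0.04), 12 partners and repressors of NRF2 (-0.36) and 14 other sources of NADPH (0.08). The median of the partners and repressors was -0.07 without GHRH-KO replicate 5. Among the 25 other NRF2 target genes, log2 fold changes ranged from -0.58 to 1.87. At an unadjusted p under 0.05 from limma, 4 of these 25 genes were higher and 3 lower.

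The livers held their defining hepatocyte markers, with 9 of 9 above background and a summed linear signal of 134000 to 138000 in control and 143000 to 146000 in GHRH-KO liver. The 12 markers of Kupffer cells and macrophages summed to 8930, 3510 and 3570 in control liver and to 10000, 3970 and 6420 in GHRH-KO liver. They were highest on the arrays of GHRH-KO replicate 4 and control replicate 1, the first of which was also highest for Mt1, Mt2 and Hmox1. None of the 12 was called, and their part in those results was not tested. Log2 fold changes of the 12 ranged from -1.26 (Marco) to 1.19 (Cd68), with 9 positive and 3 negative. Only for Cd68 were the genotypes apart. Stellate cell markers summed to 6200 to 9370 in control and 7830 to 10200 in GHRH-KO liver, and endothelial markers to 4070 to 5040 and 3980 to 4770. Lymphocyte markers (272 to 310 and 325 to 359, with 6 of 10 at background), neutrophil markers (146 to 154 and 157 to 232, with 4 of 6 at background) and cholangiocyte markers (154 to 279 and 160 to 179, with 3 of 6 at background) were low. Erythroid markers summed to 1730 to 2440 in control and 707 to 984 in GHRH-KO liver, with 4 of 5 at background. The exception, Alas2, was called decreased (log2 fold change -1.36, adjusted p = 0.0219 from limma). The sum therefore follows Alas2 and does not measure erythroid cells as a group. Deviations from the median of each probe set over all 6 arrays were widest on 2 arrays. These were control replicate 2 and GHRH-KO replicate 5 (interquartile range 0.232 and 0.231, against 0.157 to 0.219 on the other arrays). Without both, Gstt3 and Nqo1 were still called, and Gpx3 (adjusted p = 0.119) and Gstp1 (adjusted p = 0.110) were not.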

How the data were processed

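Liver RNA of 3 GHRH-KO and 3 control male mice, each a separate animal, was hybridized to 6 Affymetrix mouse arrays. The authors deposited RMA values on the log2 scale for 45101 probe sets, with array medians from 4.95 to 4.99. The RMA version is not given in the sources used here. Quantile normalization removes any shift common to all genes, and saturation can compress the brightest probe sets.

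Without the 64 control probe sets, GHRH-KO minus control was fitted by lmFit and eBayes of limma 3.58.1 (R 4.3.3) to the brightest 25145 probe sets by mean. The Benjamini-Hochberg adjustment of p ran over all of them, and the fit was tested on simulated data. Probe sets were named from the platform annotation, and only those of 1 gene were used. A value at or under 4.75, the highest Ghrh value, was taken as background. Summed marker levels are sums of 2 to the power of the RMA value.

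The genes, lists and tests were chosen with earlier results of these data known. Named in full were called genes, genes with another probe set called, and Gclm, Nqo1, Txnrd1, Hmox1, Mt1 and Mt2. Of the rest, the largest differences of each class were named, and of the pathway lists the called genes. Alternatives concerned filter, probe set, normalization, variance model, array weights and arrays left out. Sequences are RefSeq (GRCm38.p6). Plots were made in Python 3.11.15 with matplotlib 3.10.9.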

Additional observations from a re-analysis of the deposited data

How the results depend on the processing

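The 3 increased genes were kept under every filter, normalization and variance setting. The direction of all 4 calls was kept wherever the gene had a value, and Gstp1 had none under the filter on probe set names. The count of increased genes was 5 by the probe set with the lowest p, 8 at an unadjusted p under 0.05 (chosen after seeing the data), and 1 to 2 with each array left out in turn. The count of decreased genes was 2 with array weights (Prdx4 added) and 2 with an intensity trend (Gclc added). It was 0 with arrays centred on their median and 0 without both wider arrays. Without probe sets whose names end in _s_at, _x_at or _a_at it was 0, as Gstp1 has no value there. The count was 0 to 0 with each array left out, and 6 at an unadjusted p under 0.05. Over all genes, 98 were called increased and 121 decreased with the settings described. These counts were 248 and 288 with array weights and 107 and 130 with an intensity trend. They were 129 and 117 with centred arrays, and 36 to 93 and 46 to 95 with each array left out. The median log2 fold change of the 47 genes was 0.123 with centred arrays and 0.162 by the probe set with the lowest p. With each array left out it was 0.011 to 0.174, lowest without control replicate 2. Over all genes the medians were 0.05, -0.01 and -0.01 to 0.01, in the same order. Txn2 changed from -0.17 to 1.52 by the probe set with the lowest p, since another probe set is read. Signs of genes that were not called changed for 17 genes under some setting. No paired analysis was possible because the sample labels do not give the litter of each mouse. With 3 mice per genotype, each call rests on few arrays, and Gpx3 and Gstp1 did not hold without any 1 of them. Leaving out arrays in turn for the pathway lists, Slc30a10 and the dimmer probe sets was added after seeing the data. The cause of the changes was not tested where no construction is named.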
